A study of Mus musculus with 16 samples.

Results

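Regions that carried an H3K27ac peak in untreated macrophages, in macrophages given the PARP inhibitor PJ34 and in macrophages given IFNγ with PJ34, but not in macrophages given IFNγ alone, were examined. They were chosen by peak presence in the 4 deposited H3K27ac peak lists. Peaks that overlapped by at least 1 bp were merged into 55218 regions, and those with a peak from Control, PJ34 and IFNγ+PJ34 and none from IFNγ were kept. This gave 1598 regions, 2.89% of the whole, which covered 1.45 Mb. The absence of an IFNγ peak was thus used to select them and is not a finding.

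Acetylation of histone H3 on lysine 27 (H3K27ac) marks active promoters and active enhancers, the distal elements that drive expression from a distance. IFNγ is a cytokine that activates macrophages through a cell-surface receptor and the JAK kinases, and many of the genes that it turns on have a gamma-activated sequence (GAS) nearby. PARP-1 is a nuclear enzyme that consumes NAD+ to attach ADP-ribose to proteins, and PJ34 blocks the catalytic activity of the PARP family.

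The cells were bone marrow-derived macrophages (BMDMs), cultured from the marrow of C57Bl6 mice aged 8 to 12 weeks. The Control group was untreated, the IFNγ group received 100 ng/mL for 1 h, the PJ34 group received 20 µM PJ34, and the IFNγ+PJ34 group received the inhibitor 1 h ahead of the same dose of cytokine. How long the PJ34 group was exposed is not stated in the sources used here, and PJ34 acts on several PARP enzymes. Each group had 2 ChIP replicates and 2 input replicates, 16 samples in all, and the authors deposited 1 peak list per group. Each list is attached to replicate 1 of its group, and by the study's methods it holds peaks found in both replicates. With a single list per group there is no error between replicates and no p-value for any comparison below. The intervals given are 95% intervals that cover counting error only, over regions that are not independent of each other, and the read depth behind each list is unknown. In these bulk samples, fewer cells with the mark and less mark per cell cannot be told apart, and the labels do not say whether the replicates were separate mice or cultures.

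The lists held 43533 peaks for Control, 40708 for IFNγ, 44090 for PJ34 and 42960 for IFNγ+PJ34. The cell label was checked at start sites of marker genes. All of 10 macrophage markers, among them the PU.1 gene Spi1 and the receptor gene Csf1r, had a peak within 1 kb of a start site in each of the 4 lists. The 5 T cell and 3 epithelial markers had none in any list. Of the other markers, 1 of 4 B cell (Ms4a1), 1 of 4 erythroid (Klf1) and 2 of 3 endothelial genes (Kdr and Pecam1) had a peak in every list. Depending on the list, 0 to 2 of 5 neutrophil genes and 0 to 1 of 5 stromal genes had one. Camp, a neutrophil granule gene, had a Control peak at the 52.1 percentile of score, a PJ34 peak at 32.8 and an IFNγ peak at 4.55, and none in IFNγ+PJ34. The part of such peaks in the results below was not tested. The score percentile used here and below is the rank of a peak's score within its own list, from 0 for the weakest to 100 for the strongest.

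The sequence at the point of highest signal, the summit, is shown for 8 of the regions, as 200 bases of the plus strand of mm10 centred on the Control summit. The windows of Tle1, Ulk2 and St6gal1 are from the strongest regions by the lowest of their 3 score percentiles, named for the nearest start site. B9d1 is the strongest promoter region, and Egr3 the strongest of 3 upstream of that gene. Ccl7 is the promoter of an IFNγ-response chemokine, and Mrc1 an intron of the mannose receptor gene. Sec14l1 is the strongest region that holds the strict GAS element TTCCNGGAA in this window. Capitals mark any GAS, ISRE core, PU.1, AP-1, C/EBP, MAF half-site, RUNX or kappaB match in the window.
Tle1 (chr4:72425126-72425325, plus strand): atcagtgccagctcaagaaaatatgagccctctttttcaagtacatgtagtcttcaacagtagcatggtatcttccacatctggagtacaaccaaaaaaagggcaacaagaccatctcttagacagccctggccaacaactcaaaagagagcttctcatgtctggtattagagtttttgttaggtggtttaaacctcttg
Ulk2 (chr11:61839421-61839620, plus strand): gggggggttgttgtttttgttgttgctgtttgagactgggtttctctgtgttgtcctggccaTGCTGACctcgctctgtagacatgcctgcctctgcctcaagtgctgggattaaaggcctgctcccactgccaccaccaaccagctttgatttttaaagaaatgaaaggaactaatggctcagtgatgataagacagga
St6gal1 (chr16:23272630-23272829, plus strand): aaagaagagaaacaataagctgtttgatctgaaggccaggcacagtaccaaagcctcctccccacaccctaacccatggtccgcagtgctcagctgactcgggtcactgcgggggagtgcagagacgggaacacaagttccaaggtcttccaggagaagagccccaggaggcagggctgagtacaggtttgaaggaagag
B9d1 (chr11:61504863-61505062, plus strand): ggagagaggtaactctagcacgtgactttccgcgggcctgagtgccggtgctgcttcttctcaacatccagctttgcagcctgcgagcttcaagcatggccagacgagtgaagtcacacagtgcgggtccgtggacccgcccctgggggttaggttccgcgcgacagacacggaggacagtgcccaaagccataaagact
Egr3 (chr14:70066484-70066683, plus strand): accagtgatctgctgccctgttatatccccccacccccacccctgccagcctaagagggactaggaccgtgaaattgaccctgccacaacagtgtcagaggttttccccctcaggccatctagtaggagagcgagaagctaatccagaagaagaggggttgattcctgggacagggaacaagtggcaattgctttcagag
Ccl7 (chr11:82045102-82045301, plus strand): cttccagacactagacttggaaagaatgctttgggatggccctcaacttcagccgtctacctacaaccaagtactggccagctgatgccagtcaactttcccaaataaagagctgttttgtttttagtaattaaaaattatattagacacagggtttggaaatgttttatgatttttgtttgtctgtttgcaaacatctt
Mrc1 (chr2:14233478-14233677, plus strand): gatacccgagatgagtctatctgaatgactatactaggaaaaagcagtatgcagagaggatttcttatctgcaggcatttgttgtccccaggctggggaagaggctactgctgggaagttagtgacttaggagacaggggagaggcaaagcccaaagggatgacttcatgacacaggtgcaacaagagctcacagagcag
Sec14l1 (chr11:117088184-117088383, plus strand): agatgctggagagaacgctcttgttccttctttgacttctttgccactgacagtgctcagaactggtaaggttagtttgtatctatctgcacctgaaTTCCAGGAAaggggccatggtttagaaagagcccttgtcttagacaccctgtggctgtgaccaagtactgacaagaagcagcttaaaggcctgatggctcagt
Of these windows, that of Ulk2 held a MAF half-site (TGCTGAC) and that of Sec14l1 the GAS element it was chosen for. The other 6 held none of the 8 motifs, including the windows beside Egr3, Ccl7 and Mrc1.

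The number of regions was first set against the regions that could have been members, those found in Control, PJ34 and IFNγ+PJ34 whatever their state in IFNγ. Of 23066 such regions, 1598 lacked an IFNγ peak, a share of 6.93% (6.60 to 7.26%). This share is the background against which the counts below are read, and it is fixed by the rule. The matching share was 3.35% for regions lacking only Control, 3.77% for those lacking only PJ34 and 12.3% for those lacking only IFNγ+PJ34. Absence from IFNγ alone was therefore more frequent than absence from Control alone, by 3.57 points (3.17 to 3.98), while its difference from absence from IFNγ+PJ34 alone was -5.42 points (-5.95 to -4.89). The IFNγ list was also the smallest of the 4.

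Absence from IFNγ was found at weaker regions. Among regions whose lowest percentile in the other 3 lists lay under 10, 32.6% lacked an IFNγ peak, and the share was 27.3% between 10 and 20, 17.4% between 20 and 30 and 10.4% between 30 and 40. It was 1.69% between 50 and 60 and 0.252% (0.102 to 0.519%) between 60 and 70. Above 70 no region lacked IFNγ: the count was 0 of 3121 between 70 and 80, which allows a share of up to 0.0961%, and 0 of 5839 above 80, which allows up to 0.0514%. Shares for the other lists were also low at high rank, though that for PJ34 was 13.3% under 10 and 17.2% between 10 and 20. In the 50 to 60 bin, 8.74% lacked IFNγ+PJ34, 1.21% lacked PJ34 and 0.675% lacked Control, so the order of IFNγ among the 4 was the same in this bin as over all regions.

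**Figure D1:**
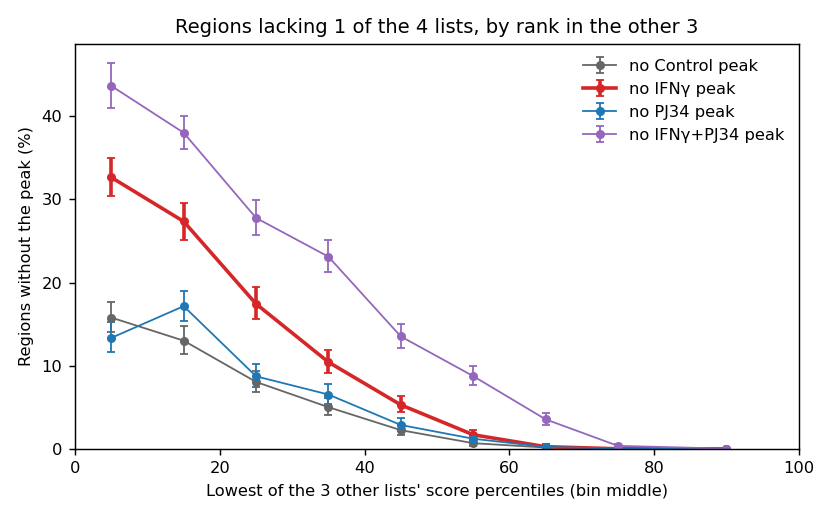
Share of regions found in 3 lists that had no peak in the remaining list (y axis, %), against the lowest score percentile of the 3 lists that held the region (x axis, middle of each bin). Bars are 95% Clopper-Pearson intervals; the share without an IFNγ peak fell from 32.6% in the lowest bin to 0.252% between 60 and 70, below that without an IFNγ+PJ34 peak in every bin.

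Within the lists that held them, the regions ranked low to middle. Their highest peak had a median percentile of 40.2 in Control, 25.3 in PJ34 and 31.8 in IFNγ+PJ34, with median fold enrichments over input of 4.97, 3.67 and 4.42. Regions found in all 4 lists had medians of 74.5, 74.2 and 72.1 in the same lists, with fold enrichments of 14.7, 11.9 and 12.3. The ranges overlapped: the highest member reached the 88.5 percentile in Control, 76.6 in PJ34 and 89.7 in IFNγ+PJ34. The Control peak was the highest ranked of the 3 in 770 regions (48.2%) and the PJ34 peak in 352 (22.03%). All 3 percentiles were at or under 50 in 815 regions (51.0%, 48.5 to 53.5%), and all 3 were above 50 in 50 regions (3.13%, 2.33 to 4.10%). Most peaks passed a stricter limit: 98.6% of the Control peaks, 97.1% of the PJ34 peaks and 91.6% of the IFNγ+PJ34 peaks in these regions had q under 0.01.

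**Figure D2:**
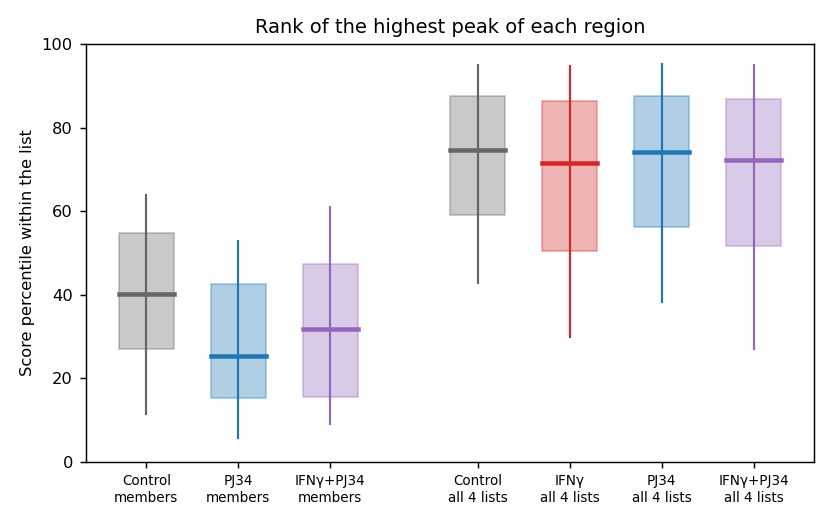
Score percentile of the highest peak (y axis) in the 1598 regions missing only from IFNγ (members) and in the 21468 regions of all 4 lists, for each list. Lines mark medians, boxes the middle 50% and whiskers the 10th to 90th percentile of regions; the member medians of 40.2, 25.3 and 31.8 lie under the lower quartile of the regions of all 4 lists.

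The summits of the 3 lists lay near each other, but the lists did not rank the regions alike. Overlapping peaks were merged into regions with a median width of 752 bp, so the rule itself favours near summits, which are not a finding. Across the 1598 regions, the summits of Control and PJ34 lay a median of 64 bp apart, and 81.5% of pairs lay within 200 bp. For regions of all 4 lists the distance was 38 bp and the share 82.7%. The Spearman correlation of the percentiles was 0.24 between Control and PJ34, 0.29 between Control and IFNγ+PJ34 and 0.10 between PJ34 and IFNγ+PJ34, against 0.89, 0.77 and 0.71 in regions of all 4 lists. These are descriptions across regions of the same lists, and the narrower span of ranks among the members enters them. Of the length of a region, the Control peaks covered a median of 92.6%, the PJ34 peaks 60.6% and the IFNγ+PJ34 peaks 64.7%.

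The strongest region, by the lowest of the 3 percentiles, was chr4:72424249-72426130, an intergenic interval 224.3 kb upstream of Tle1, which encodes a Groucho-family corepressor. It ranked at 77.04 in Control, 66.1 in PJ34 and 88.7 in IFNγ+PJ34, with fold enrichments of 14.8, 8.40 and 26.6. The next IFNγ peak was 11.4 kb away. The second (chr11:61839061-61840057), in an intron of Ulk2, an autophagy kinase gene, was the most even of the leading regions, at 64.0, 63.8 and 64.3 in the same order. The third (chr16:23271354-23273587), in an intron of the sialyltransferase gene St6gal1, ranked at 70.2, 62.8 and 73.2. A Zfhx3 intron region (chr8:108691036-108693099) ranked at 78.9, 66.8 and 62.2 and had an IFNγ peak 0.405 kb from its edge. These regions were well above the median rank of the members in all 3 lists.

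Promoter regions were few among the leading ones. The strongest, chr11:61504770-61505172, had its summit 0.181 kb upstream of the start site of B9d1, a ciliary gene, and was only 403 bp wide. Its fold enrichment was 14.3 in Control, 8.38 in PJ34 and 9.37 in IFNγ+PJ34. A region at Fut4, a fucosyltransferase gene (chr9:14751576-14752540), had fold enrichments of 8.63, 8.86 and 8.30, and the next IFNγ peak was 31.3 kb away. Another region (chr2:166639242-166640040) lay at a start site inside Prex1, which encodes an exchange factor for Rac. It ranked at 53.6 in Control, 59.9 in PJ34 and 70.5 in IFNγ+PJ34. Regions in exons were led by Arrdc4 (chr7:68738081-68739492), at 59.7, 64.6 and 66.7, then Prss45 and Tbc1d30, whose lowest percentiles were 48.7 and 43.6.

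Of the 15 strongest regions, 9 were intergenic, including chr2:170147897-170148640 beside Zfp217, chr17:55736166-55737598 beside the macrophage adhesion receptor gene Adgre4, and chr2:46140986-46142078, whose nearest start site, that of Zeb2, lay 1024.4 kb away. The Adgre4 region ranked at 75.4 in Control, 58.9 in PJ34 and 62.2 in IFNγ+PJ34. The Il21r intron region (chr7:125617195-125618938), in the gene of a cytokine receptor that signals through JAK and STAT proteins, had the reverse balance, with 58.9 in Control, 57.6 in PJ34 and 77.5 in IFNγ+PJ34. Others lay near Zdhhc25, Plbd1 and, on the X chromosome, Dusp9, with lowest percentiles of 60.2, 58.4 and 57.6. Distance from the nearest IFNγ peak varied among the 15 from 0.312 kb at Zfp217 to 240.7 kb at Zdhhc25.

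The widest regions were not the strongest. The widest, chr17:84070897-84075605, spanned 4709 bp between genes, 116 kb from Zfp36l2, and ranked at 77.8 in Control, 50.8 in PJ34 and 69.7 in IFNγ+PJ34. A 4432 bp region in Zfyve28 (chr5:34230210-34234641) ranked at 78.7 in Control but at 25.3 in PJ34 and 38.4 in IFNγ+PJ34. The third, 4130 bp near Slc7a13 (chr4:19853434-19857563), held the highest Control fold enrichment of any member, 28.8, and was at 5.12 in PJ34 and 16.6 in IFNγ+PJ34. In this region the Control list had 1 peak and the PJ34 list 2.

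Although the regions had no IFNγ peak, many lay close to one. The median distance from the edge of a region to the next IFNγ peak was 4066.5 bp, 465 regions (29.1%, 26.9 to 31.4%) had one within 1 kb, and 1450 (90.7%, 89.2 to 92.1%) within 50 kb. The share within 1 kb depended on how presence was defined: it was 47.1% where a peak had to cover 25% of the region and 13.5% in the higher-scoring 50% of peaks. Regions missing only from Control had a Control peak within 1 kb in 31.5%, and the difference of -2.44 points (-6.50 to 1.51) did not exceed counting error. Regions missing only from PJ34 had a PJ34 peak within 1 kb in 26.1%, a difference of 3.03 points (-0.737 to 6.68). Regions missing only from IFNγ+PJ34 had one of that list in 23.0%, lower by 6.05 points (3.39 to 8.76).

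**Figure D3:**
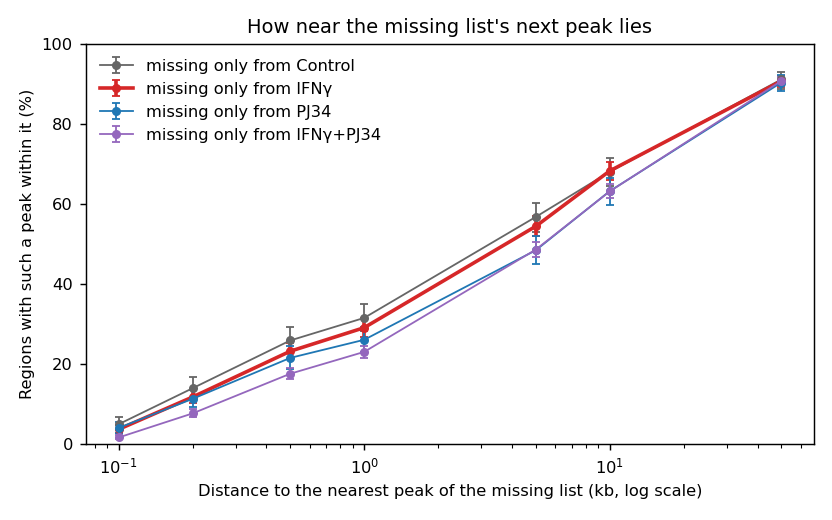
Share of regions (y axis, %) with a peak of the list they are missing from within the distance on the x axis (kb, log scale), with 95% Clopper-Pearson intervals. For the regions missing only from IFNγ the share was 29.1% at 1 kb and 90.7% at 50 kb.

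The nearest misses are given without a test. The members closest to an IFNγ peak lay 7 bp from it, an intergenic region near B430305J03Rik (chr3:61591616-61592588) and one near Ifitm6 (chr7:141013880-141014502), and the next lay 9 bp away, near Prdm1, near Ankrd50 and in an intron of Cdc42. On the other side of the limit, the regions of all 4 lists with the least overlap had 119 bp of IFNγ peak in a Dock11 intron, 140 bp at the Zfyve1 promoter and 154 bp in an Itpr1 intron. Their IFNγ peaks were at the 4.55, 4.55 and 0.723 percentiles of the IFNγ list. None of 21468 regions of all 4 lists had 100 bp or less of overlap with IFNγ, which allows a share of up to 0.0140%, and 97 had 200 bp or less.

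Regions of all 4 lists that lay within 10 kb of a member, which the rule did not select, were then compared between lists. There were 1514 of them, with a median percentile of 62.1 in IFNγ, against 73.4 in Control, 69.7 for PJ34 and 70.5 for IFNγ+PJ34. The percentile was lower in IFNγ than in Control in 74.6% of these regions (72.3 to 76.7%), with a median shift of -7.63 points. The share was 61.9% over all regions of 4 lists, with a median shift of -2.25. For PJ34 it was 60.1%, against 49.1% over all, and for IFNγ+PJ34 it was 59.2%, against 63.4% over all. Neighbours of regions missing only from IFNγ+PJ34 had the same feature for their own list, with 76.4% lower in IFNγ+PJ34 and a median shift of -9.16. Nearby regions share a list's local signal and are no replicates of each other, and the same lists selected the members.

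The regions were mostly distal. Of the 1598, 216 (13.5%, 11.9 to 15.3%) had their summit within 1 kb of a protein-coding start site, 61 (3.82%) lay in other exonic sequence, 694 (43.4%) in introns and 627 (39.2%, 36.8 to 41.7%) between genes. For 83 of the 216 (38.4%, 31.9 to 45.3%), the gene also had a region of all 4 lists within 1 kb of a start site. The promoter share was 25.4% when the rule was applied to the higher-scoring 50% of peaks. In regions of all 4 lists, promoters held 46.4%, a difference of -32.8 points (-34.6 to -31.0). Much of this went with rank. Where the lowest of the Control, PJ34 and IFNγ+PJ34 percentiles was under 20, promoters held 14.2% of 966 members and 14.8% of 2250 regions of all 4 lists, a difference of -0.618 points (-3.18 to 2.11). Between 20 and 40 the shares were 12.7% and 18.7%, a difference of -5.95 points (-9.02 to -2.37). Above 40 they were 11.8% of 161 members and 55.9% of 16216 regions, a difference of -44.1 points (-48.2 to -38.1), though regions of all 4 lists reach much higher ranks in that bin. Against regions missing only from one other list, promoters were more frequent in the members, by 6.67 points over Control (4.08 to 9.05), 6.61 over PJ34 (4.12 to 8.94) and 4.99 over IFNγ+PJ34 (3.08 to 6.99).

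The regions were narrower than those of all 4 lists, with a median width of 752 bp against 1825 bp, and ran from 249 to 4709 bp. Regions missing only from another list had medians of 754 to 886 bp. The median GC content was 46.0%, against 43.2% in regions missing only from Control and 44.8% in those missing only from PJ34. Regions of all 4 lists had 48.8%, but this difference went with rank. Where the lowest of the Control, PJ34 and IFNγ+PJ34 percentiles was under 20, the median was 46.1% in members and 45.3% in regions of all 4 lists. Between 20 and 40 the medians were 46.1% and 46.0%, and above 40 they were 45.2% and 49.8%. The observed to expected ratio of CpG was 0.209, and 0.334 in regions of all 4 lists, without matching for rank. Repeats made up a median of 14.8% of the sequence. The summit lay a median of 17.1 kb from the nearest start site, and the nearest region of all 4 lists a median of 5.50 kb away.

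The windows of 200 bp around the summit were searched on both strands for 13 motifs, of which those other than GAS and its control were chosen after the files had been seen. The GAS element TTCNNNGAA was in 96 windows (6.01%, 4.89 to 7.29%) and the control GAANNNTTC, the same letters turned around, in 85 (5.32%, 4.27 to 6.54%). Over regions of all 4 lists the shares were 5.11% and 3.98%, and the interval of the difference included 0 for GAS (-0.203 to 2.21) but not for the control (0.308 to 2.58). GAS was less frequent in the members than in regions missing only from Control, with 8.99%, a difference of -2.99 points (-5.49 to -0.740). The control differed there by -0.318 points (-2.46 to 1.56). IFNγ also held the regions missing only from PJ34 and only from IFNγ+PJ34, and for these the interval of the difference included 0. GAS was in 7.38% of those missing only from PJ34, a difference of -1.37 points (-3.61 to 0.657). In regions missing only from IFNγ+PJ34 it was in 5.65%, a difference of 0.353 points (-1.03 to 1.84). The strict form TTCCNGGAA, which the GAS pattern includes, was in 10 windows (0.626%) and in 1.88% of those missing only from Control, a difference of -1.25 points (-2.54 to -0.334).

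Of motifs bound by macrophage factors, the C/EBP motif TTGCNNAA was in 7.51% of the windows, the ISRE core GAAANNGAA of interferon-regulatory factors in 7.38%, the RUNX motif TGTGGTT in 4.88%, the AP-1 motif TGANTCA in 4.82%, the MAF half-site TGCTGAC in 3.57% and the PU.1 motif GAGGAAGT in 1.88%. For AP-1 and the MAF half-site the intervals of the difference from regions of all 4 lists included 0. C/EBP, the ISRE core, RUNX and PU.1 were more frequent in the members, by 1.86 points (0.625 to 3.29), 1.79 points (0.561 to 3.20), 1.59 points (0.608 to 2.78) and 0.741 points (0.162 to 1.54). Without promoter regions these differences were 0.622, 0.319, 0.434 and 0.521 points, and each of these intervals included 0. The kappaB motif GGGANTTTC was in 11 windows, the M-box TCACGTGA in 4, and CRE (TGACGTCA) and EGR (GCGTGGGCG) in 2 each. A match is a match of letters and does not show that the factor was bound.

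Genes near the regions were then counted. Of 21840 protein-coding genes, 2389 (10.9%) had a member within 50 kb of a start site, which is the background for the gene lists. A total of 2046 genes had 1 member, 289 had 2, 52 had 3 and 2 had 5. The lists, 10 in number, were drawn up from knowledge of macrophage biology with earlier results of these data known. Of 209 listed genes, each counted once, 40 (19.1%, 14.0 to 25.1%) had a member within 50 kb. The listed genes were also near the other classes more often than all genes were: 19.6% had a region missing only from Control, against 3.83% of all genes, 15.3% a region missing only from PJ34, against 5.26%, and 34.0% a region missing only from IFNγ+PJ34, against 15.6%. A region of all 4 lists lay near 96.2% of the listed genes and 67.8% of all genes. The excess at listed genes was thus shared by every class, and within 10 kb of a start site the listed genes near a member were 4.31% (1.99 to 8.02%), an interval that includes the 3.27% of all genes.

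**Figure D4:**
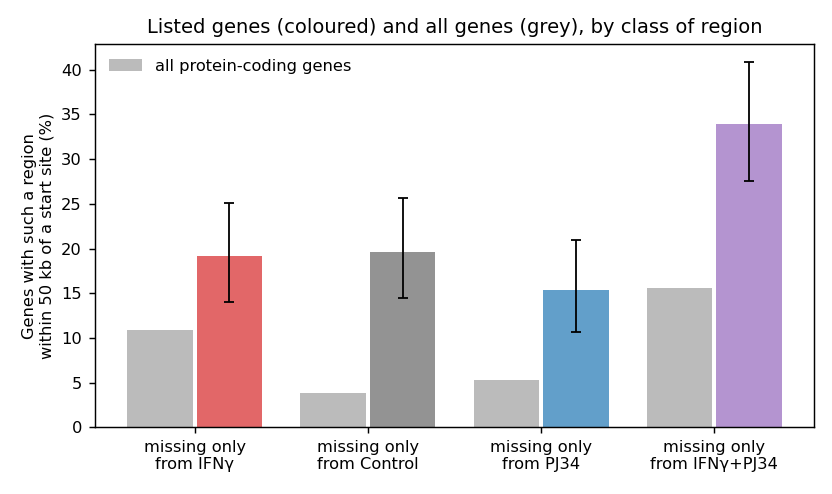
Share of the 209 listed genes (coloured bars, 95% Clopper-Pearson intervals) and of all 21840 protein-coding genes (grey bars) with a region of each class within 50 kb of a start site (y axis, %). For regions missing only from IFNγ the values were 19.1% and 10.9%.

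By list, the count was 5 of 15 for growth and colony-stimulating signalling (33.3%, 11.8 to 61.6%), 5 of 18 for alternative activation (27.8%, 9.69 to 53.5%), 5 of 18 for phagocytosis, lysosome and cytoskeleton and 7 of 26 for resting macrophage identity (26.9%, 11.6 to 47.8%). It was 10 of 50 for the IFNγ response (20.0%, 10.03 to 33.7%), 4 of 21 for NF-kB and inflammatory genes, 2 of 14 for the IFNγ receptor and JAK-STAT genes, 2 of 16 for AP-1 and early-response genes, 2 of 17 for PARP and NAD genes and 2 of 19 for lipid and cholesterol genes. Which lists lay above the share of all genes depended on the distance. At 50 kb the intervals for growth signalling and for resting macrophage identity did, and at 10 kb, where the share of all genes was 3.27%, neither did. At 100 kb, where that share was 18.8%, the intervals for the IFNγ response, alternative activation and phagocytosis also lay above it. At 50 kb, resting macrophage identity was likewise above all genes for regions missing only from PJ34 (19.2%, 6.55 to 39.4%, against 5.26%). The same held for regions missing only from Control (15.4%, 4.36 to 34.9%, against 3.83%), but not for those missing only from IFNγ+PJ34 (15.4%, against 15.6%). Growth signalling was above all genes in none of these classes. Genes of a cluster can share a region, so these genes are not independent. The lists also share genes, so they are not separate results. Csf1r, which had members, was counted both in growth signalling and in resting macrophage identity. Mrc1 was counted both in resting macrophage identity and in alternative activation. Shares without these genes were not calculated.

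Among genes of the resting macrophage, Mrc1, the mannose receptor, had 3 members in its introns, with summits 4.19, 5.04 and 15.3 kb past the start site. All 3 ranked highest in IFNγ+PJ34, at 64.3, 48.7 and 62.2, and lower in Control, at 36.8, 11.5 and 19.9, and in PJ34, at 25.3, 5.78 and 5.78. The IFNγ list had its next peak 1.07, 2.74 and 4.51 kb from them. The first member began at 3.199 kb, beside the start-site region of all 4 lists, which ended at 3.198 kb. It ended at 4.818 kb, and the second began at 4.869 kb. Such adjoining regions were counted apart only because their peaks shared no base. Csf1r, the receptor of the growth factor on which macrophages depend, had 3 members, 18.7 kb upstream and 17.2 and 25.8 kb past the start site. The upstream region ranked at 36.8 in Control, 50.8 in PJ34 and 68.9 in IFNγ+PJ34, whereas the intron region at 17.2 kb ranked highest in Control, at 53.6. The start site of Mrc1 had an IFNγ peak at the 62.9 percentile, against 78.9 in Control. The PJ34 peak there was at 63.8 and the IFNγ+PJ34 peak at 88.2. At Csf1r, Ctsd and Lyz2 the IFNγ peak was at 93.5, 93.9 and 81.6, against Control values of 99.7, 97.7 and 97.7. The PJ34 peaks of these genes ranked at 97.2, 96.6 and 88.4, and their IFNγ+PJ34 peaks at 99.4, 94.4 and 88.5. PJ34 peaks thus also ranked below Control at each of these start sites, though the IFNγ peak was the lowest at each. Of the other macrophage markers, the IFNγ peak was also the lowest at Cd68, Itgam and Mertk, but not at the rest. At Fcgr1 and Cd14 the PJ34 peak was lowest, at 88.6 and 94.5, against 97.8 and 94.9 in IFNγ. At Adgre1 and Spi1 the IFNγ+PJ34 peak was lowest, at 90.7 and 97.2, against 91.3 and 99.9 in IFNγ.

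A region 14.0 kb from Apoe, which encodes a lipid carrier (chr7:19684003-19684674), ranked at 79.0 in Control, 48.6 in PJ34 and 67.8 in IFNγ+PJ34, with fold enrichments of 20.3, 5.45 and 11.9. Ctsd, the cathepsin D gene, had an upstream member at 69.0 in Control and another 47.3 kb past the start site, in an intron of Ifitm10, at 76.6 in PJ34, the highest PJ34 rank of any member. The scavenger receptor gene Cd163 had an intronic member (chr6:124320109-124322186) at 60.6, 32.8 and 38.4, with no IFNγ peak nearer than 37.0 kb. Lyz2 and Runx1 had 1 member each, with lowest percentiles of 3.47 and 38.2. Among these genes no order of the 3 lists was common to all.

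Genes of alternative activation, the state driven by IL-4, included Retnla, whose member 11.3 kb upstream was strong in Control alone, at 59.7 against 5.78 in PJ34 and 15.6 in IFNγ+PJ34, and had no IFNγ peak within 81.9 kb. Pparg, a lipid-sensing nuclear receptor gene, had a member 26.4 kb upstream at 64.0, 38.2 and 35.5. The chemokine gene Ccl22 had 1 member, with a lowest percentile of 3.47, and Ccl24 had 2. The Ccl24 region 4.27 kb from its start site ranked highest in IFNγ+PJ34, at 67.3, and was 63.2 kb from the next IFNγ peak.

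The genes with the most members within 50 kb were Prex1 and Fcgr2b, with 5 each. Fcgr2b encodes the inhibitory Fc receptor. Its members lay between 12.9 kb upstream and 44.0 kb past the start site, 2 of them inside the gene, and their percentiles ran from 11.5 to 42.8 in Control, from 15.3 to 48.6 in PJ34 and from 15.6 to 61.0 in IFNγ+PJ34. As many as 12 regions of all 4 lists lay within the same 50 kb, so the members were a minority of the acetylated regions there. At Prex1 all 5 lay in the promoter or introns, with percentiles from 19.9 to 53.6 in Control, from 25.3 to 59.9 in PJ34 and from 8.96 to 70.5 in IFNγ+PJ34. Casc3, which encodes a part of the exon junction complex, shared its 3 members with Msl1, Thra and Nr1d1. The strongest of these (chr11:98782491-98783523), nearest to the start site of Nr1d1, was at 71.5 in Control, 54.8 in PJ34 and 58.4 in IFNγ+PJ34.

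Egr3, which encodes an early growth response factor, had 3 members upstream of its start site, which also lay within 50 kb of Bin3. The region at 10.6 kb (chr14:70066221-70067025) ranked at 69.4 in Control, 59.9 in PJ34 and 72.1 in IFNγ+PJ34, and that at 15.3 kb (chr14:70061423-70063191) at 66.8, 63.8 and 59.4. The region between them, at 11.4 kb, was at 60.6, 38.2 and 31.8. These regions were also not well separated from others. The member at 15.3 kb began at -15.78 kb, beside a region of all 4 lists that ended at -15.823 kb. The member at 11.4 kb ended at -11.039 kb, and that at 10.6 kb began at -10.982 kb. Within 50 kb of the start site, 4 regions were found in all 4 lists. In the farthest upstream the Control peak was at the 88.1 percentile and the highest IFNγ peak at 79.6. In the next they were at 60.6 and 24.3, in the one nearest the start site at 71.9 and 62.9. In the one downstream they were at 88.2 and 84.4. The highest PJ34 peaks, in the same order of regions, were at 87.2, 46.0, 65.3 and 88.8. The highest IFNγ+PJ34 peaks were at 92.9, 59.4, 50.2 and 87.9.

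**Figure D5:**
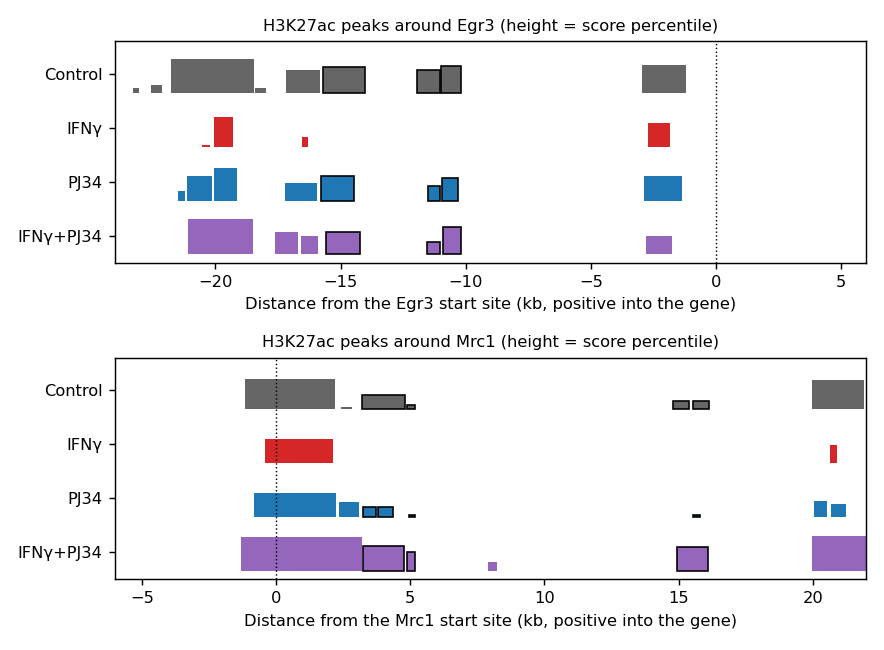
H3K27ac peaks of the 4 lists around the start sites of Egr3 (above) and Mrc1 (below), by distance from the start site (x axis, kb), with bar height proportional to the score percentile within the list and members outlined in black. The outlined peaks of Control, PJ34 and IFNγ+PJ34 have no counterpart in the IFNγ row, while some flanking regions have a peak in all 4 rows and others lack 1 or more lists.

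No member near a gene of the IFNγ response had a lowest percentile above 40.2. The only member at the promoter of a listed gene was at Ccl7, a monocyte-attracting chemokine (chr11:82044431-82045350, 0.51 kb upstream), at 19.9 in Control, 25.3 in PJ34 and 38.4 in IFNγ+PJ34, and an IFNγ peak lay 0.245 kb from it. This region is also within 50 kb of Ccl2, and both genes share a second member at 3.96 in Control, 68.0 in PJ34 and 8.96 in IFNγ+PJ34. Irf1, an interferon-regulatory factor gene, had a member 13.2 kb from its start site at 40.2, 52.9 and 45.6. A member 24.6 kb past the start of Irf8, a lineage factor of macrophages, was at 47.2, 52.9 and 8.96. The class II genes H2-Aa and H2-Ab1 and the peptide transporter gene Tap2 shared 1 region in an exon of H2-Ob. Fcgr1 and Il12b had 1 member each, with lowest percentiles of 25.3 and 3.47. The Fcgr1 member lay 24.0 kb past its start site, at the promoter of the histone gene Hist2h2bb. An IFNγ peak lay 0.063 kb from the H2-Ob region and 0.172 kb from the Fcgr1 member. The next IFNγ peak was 2.69 kb from the Irf1 member, 2.51 kb from that of Irf8 and 21.7 kb from that of Il12b.

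In the remaining lists, Stat3 had a member 11.6 kb past its start site at 40.2, 38.2 and 41.0, and a weaker one 43.9 kb upstream. Of PARP and NAD genes, Parp3 and Nadk had a member, with lowest percentiles of 26.9 and 11.5, and Parp1, the gene of PARP-1, had none within 50 kb. The cholesterol exporter gene Abcg1 had 2 members, at 25.3 and 5.78 as lowest percentiles. Csf2rb, the shared receptor chain for GM-CSF, had a member 4.60 kb upstream at 45.1, 15.3 and 60.2. Il18, Ccl3 and Ccl4 among inflammatory genes, Fos among early-response genes, Lamp1, Lamp2, Rab7 and Ctsb among lysosomal genes and Ccnd1 and Cdk6 among growth genes each had a member, whose lowest percentile was 21.9 or less in each of them.

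The regions lay on every chromosome. On the X chromosome 64 of 635 regions of the 3 lists lacked an IFNγ peak (10.1%, 7.85 to 12.7%), against 6.84% (6.51 to 7.17%) on the autosomes. The X and autosomal shares for the other lists were 2.56% and 3.38% for Control, 3.38% and 3.78% for PJ34 and 10.5% and 12.4% for IFNγ+PJ34, and the difference between lists was not tested. The regions also lay in groups: 170 of 1598 (10.6%) had the summit of another member within 5 kb and 481 (30.1%) within 50 kb.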

How the data were processed

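H3K27ac ChIP-seq of BMDMs was analysed from 4 deposited peak files, 1 per condition. Per the study's methods, the authors aligned reads to mm10 with Bowtie, filtered them for quality and unique mapping with Samtools and Picard, called peaks in each of 2 replicates against input with MACS at p 0.01 and kept peaks found in both. The authors' files give each peak a score (10 to 1000), a fold enrichment (a ratio to input), −log10 p and −log10 q as deposited, and a summit, with no counts, so depth is unknown. Peaks overlapping by 1 bp were merged. A region takes its highest peak's score percentile within a list (ties averaged). Regions were placed by the Control summit on GENCODE M21 protein-coding genes, and sequence was read from GRCm38 in RefSeq. Intervals are Clopper-Pearson for shares and Newcombe for differences (95%, scipy 1.17.1, statsmodels 0.14.6). Motifs other than GAS and its control were chosen after the files were seen. Code was tested on simulated peaks.

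Members and lists were chosen with earlier results of these data known. Regions named are the 15 with the highest lowest percentile of 3, the 3 highest per place, the 3 widest and those near named genes. Genes named are the gene of each such region, the 5 genes with most members within 50 kb, and the listed genes with a member there. A few items that these rules name are not reported here.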

Additional observations from a re-analysis of the deposited data

How the results depend on the processing

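The order of the 4 lists by the share of regions lacking only that list, IFNγ+PJ34 highest, then IFNγ, PJ34 and Control, held in each of the 6 alternative settings run. The number of regions missing only from IFNγ was 1039 with peaks up to 1 kb apart merged and 990 with only the upper 50% of every list by score, and 1264 to 1823 in the other 4 settings. Of the 1598 regions, 48 (3.00%) overlapped the 990 regions of the higher-scoring 50%, 4.85% of that set, and 1003 (62.8%) overlapped the 1039. The 6.93% lacking an IFNγ peak became 5.33% with peaks merged, 8.48% where a peak had to cover 25% of the region, 7.26% at q under 0.01 and 5.71% with lists of equal size. The promoter share of 13.5% became 25.4% in the higher-scoring 50% and 18.5% with promoters reaching to 2.5 kb. The median Control percentile of 40.2 became 45.1 with 25% cover, 67.3 in the higher-scoring 50% and 45.1 with lists of equal size. The share with an IFNγ peak within 1 kb, 29.1%, became 13.5% in the higher-scoring 50% and has no value with peaks merged over 1 kb. It became 47.1% with 25% cover, where a region can itself hold an IFNγ peak under that cover. GAS was in 24.9% of whole regions, which are longer than the 200 bp window. The share of listed genes, 19.1% at 50 kb, was 4.31% at 10 kb and 36.4% at 100 kb, against 10.9%, 3.27% and 18.8% of all genes, so that the interval at 10 kb (1.99 to 8.02%) included the share of all genes. The other 24 alternative values lay inside the counting interval or, for counts, within 1.5 times.

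No paired analysis was possible because each condition has 1 peak list, by the study's methods made from both replicates. Leaving out a replicate was not run, since the lists hold no values per replicate. By the study's methods, a list holds only peaks called in both replicates. Loss of the mark and a signal under the threshold in 1 replicate therefore cannot be told apart. Depth was not compared, since the files give no counts.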
